A study of Mus musculus with 12 samples.

Results

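Semaphorins, plexins, neuropilins, ephrins, Eph receptors, Slits, Robos, netrin-1 and Unc5b are the mouse guidance genes, a set of secreted or membrane-bound cues and the receptors that read them. They were picked here by gene symbol and not by a cutoff on any measured value, though with earlier results of these data known. The set holds every probe set paired with 1 gene whose symbol begins with Sema, Plxn, Epha, Ephb, Efna, Efnb, Slit or Robo, or is Nrp1, Nrp2, Ntn1 or Unc5b, with the Slitrk genes left out. This gave 141 of the 45265 probe sets measured and 62 of the 18194 genes that a probe set names. The 62 are 20 semaphorins, 9 plexins and the antisense transcript Plxna4os1, 2 neuropilins, 9 EphA and 4 EphB receptors, 5 ephrin-A and 3 ephrin-B ligands, 3 Slits, 4 Robos, Ntn1 and Unc5b.

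RNA from mouse mammary gland cells was measured in 2 culture states, with 3 samples of each state numbered 1, 2 and 4, on both chips of the Affymetrix MOE430 set, 12 arrays in all. The undifferentiated samples were mammospheres, clusters that mammary cells form in suspension, at passage 3 in a DMEM and F12 mixture with B-27, epidermal growth factor, basic fibroblast growth factor and heparin. By cellular markers the submitters put their purity at 90%, with 10% contaminating myoepithelial cells. The differentiated samples were mammosphere cells grown for 6 days on a collagen coat in DMEM of high glucose content and 5% fetal bovine serum, put by the submitters at 50% myoepithelial and 50% luminal cells. The labels give no strain, genotype, age or transgene for either state. They do not say whether the samples of 1 state are separate cultures or animals. The p-values therefore describe how these RNA samples varied, and that variation may be technical. Growth factors, serum, attachment and the fluidics station of the arrays changed together with the state and cannot be told apart from it.

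Semaphorins signal through plexins, and the secreted class 3 semaphorins do so with neuropilins as co-receptors. Ephrins sit on one cell and Eph receptors on its neighbour, and both sides can signal. Slits bind Robo receptors, and netrin-1 binds Dcc, neogenin and the Unc5 receptors. All of these were first known from axons, and in the mouse mammary gland Slit2, Slit3 and Robo1 are known to act in branching of the ducts and in the myoepithelial layer, and netrin-1 and neogenin in keeping the cell layers of the end bud together.

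Every array had a trimmed mean signal of 1500.5 on MOE430A or 1500.2 on MOE430B. The background used below is the brightest bacterial trpn control of an array, 516 to 829.8 signal units on MOE430A and 1674 to 2995 on MOE430B. On MOE430A the control transcripts added at hybridisation read 2.88-fold, 1.44-fold and 2.85-fold the undifferentiated mean in differentiated samples 1, 2 and 4, and the guidance genes' scale depends on whether these controls are used. Of the markers of the labelled cell types, the myoepithelial Krt5, Krt14, Trp63, Myh11 and Oxtr and the luminal Cdh1, Elf5, Esr1, Gata3 and Krt19 lay below background in all 6 samples, whereas the luminal Krt8 lay above it in all 6. The myoepithelial Acta2 and Cnn1 rose (adjusted p 2.9e-05 and 0.0171), and the luminal Krt18 overlapped at a log2 fold change of -1.69 without passing (adjusted p 0.102). Fibroblast markers were bright in both states, with a summed signal of 331063 to 338636 undifferentiated and 528338 to 734997 differentiated. Of the 9, 5 passed upward and 2 downward, beside 14.2% and 13.9% of all genes tested on MOE430A. In these bulk samples fewer cells of a type and less RNA per cell cannot be told apart.

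The comparison asks which guidance cues and receptors differ between mammospheres and the cells derived from them. The differentiated cells held more signal for the Eph receptor Ephb3, the secreted semaphorin Sema3c and the Slit ligands Slit2 and Slit3. They held less for the membrane-anchored semaphorin Sema7a, for Ntn1, for the Slit receptor Robo1 and for the neuropilin Nrp1. On the scale of the hybridisation controls Slit2 turned to -0.0626 and neither Slit passed, and Nrp1 did not pass with poly-A scaling. Against background the fall of Robo1 is bounded at only 1.02-fold. Slit2, Ntn1 and Robo1 each had another tested probe set that pointed the other way. On MOE430A 38 of the 53 guidance genes present had a probe set with a mean signal of at least 300 units and were tested with limma, each by the tested probe set of highest mean. Of these 8 rose (Ephb3, Sema3c, Slit3, Slit2, Sema4g, Efna2, Epha4 and Plxna3), 6 fell (Sema7a, Ntn1, Robo1, Sema5a, Nrp1 and Plxnc1) and 24 did not pass an adjusted p of 0.05. Among all 9484 genes tested on that chip 14.2% rose and 13.9% fell, 28.1% together, and the guidance genes, at 36.8%, were not far from that. Their median log2 fold change was 0.26, against 0.05 for all genes.

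Counted by probe set, 18 of 57 tested on MOE430A passed, 10 upward and 8 downward, beside 28.5% of all probe sets on the chip. The values of the states did not overlap for 31 of the 57, beside 47.7% of all. On MOE430B 2 of 44 passed, a Sema3c probe set upward and a Sema6d probe set downward, beside 1.83% of all, and 16 of 44 did not overlap, beside 22.8%. The median coefficient of variation of the tested guidance probe sets was 12.8% undifferentiated and 17.3% differentiated on MOE430A, and 27.1% and 36.3% on MOE430B. Over both chips 16 of the 52 tested genes had a probe set that passed, 9 upward and 7 downward, and none passed in both directions in the reported fit. Genes with more probe sets had more chances to be counted here, and the share of all genes by this rule was not worked out.

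The direction depends on the scale for part of these genes. Scaling the arrays on the hybridisation controls lowered the median log2 fold change of all MOE430A probe sets to -1.07. On that scale 2 of 41 tested guidance genes were higher (Ephb3 and Sema3c) and 22 lower. Of all 16310 MOE430A probe sets tested on that scale 233 were higher and 10955 lower, so the shift was one of the whole chip. Slit2, Sema4g, Efna2, Epha4 and Plxna3 turned negative there (-0.0626, -0.22, -0.52, -0.55 and -0.71). The other scalings tried, among them quantile normalization and poly-A controls, turned none of the 20 passed probe sets. Poly-A scaling lost 7 of the 20 calls, those of Efna2, Nrp1, Plxna3, Sema6d, both Plxnc1 probe sets and 1 of Epha4, with adjusted p-values of 0.118 to 0.296. Counting also the tested probe sets that had not passed, 30 of the 37 above 0 on MOE430A turned below 0 on the scale of the hybridisation controls. Of the 57 tested on MOE430A 56 were tested on that scale too, all but Epha4 (1421929_at). Changes below are relative to the trimmed mean of each array. Of the 20 passed probe sets 11, of 10 genes (Epha4, Ephb3, Nrp1, Ntn1, Robo1, Sema3c, Sema3f, Sema7a, Slit2 and Slit3), still passed whichever 1 sample was left out. Those of Epha4 (1421929_at) and Sema3f (1420508_at) lay below background in all 6 samples. The passed Epha4 probe set above background (1421928_at) lost its call in 5 of the 6 fits. Calls over all probe sets also became fewer with 1 sample left out. They went from 4550 to between 2760 and 3823 on MOE430A and from 328 to between 39 and 146 on MOE430B.

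**Figure D1:**
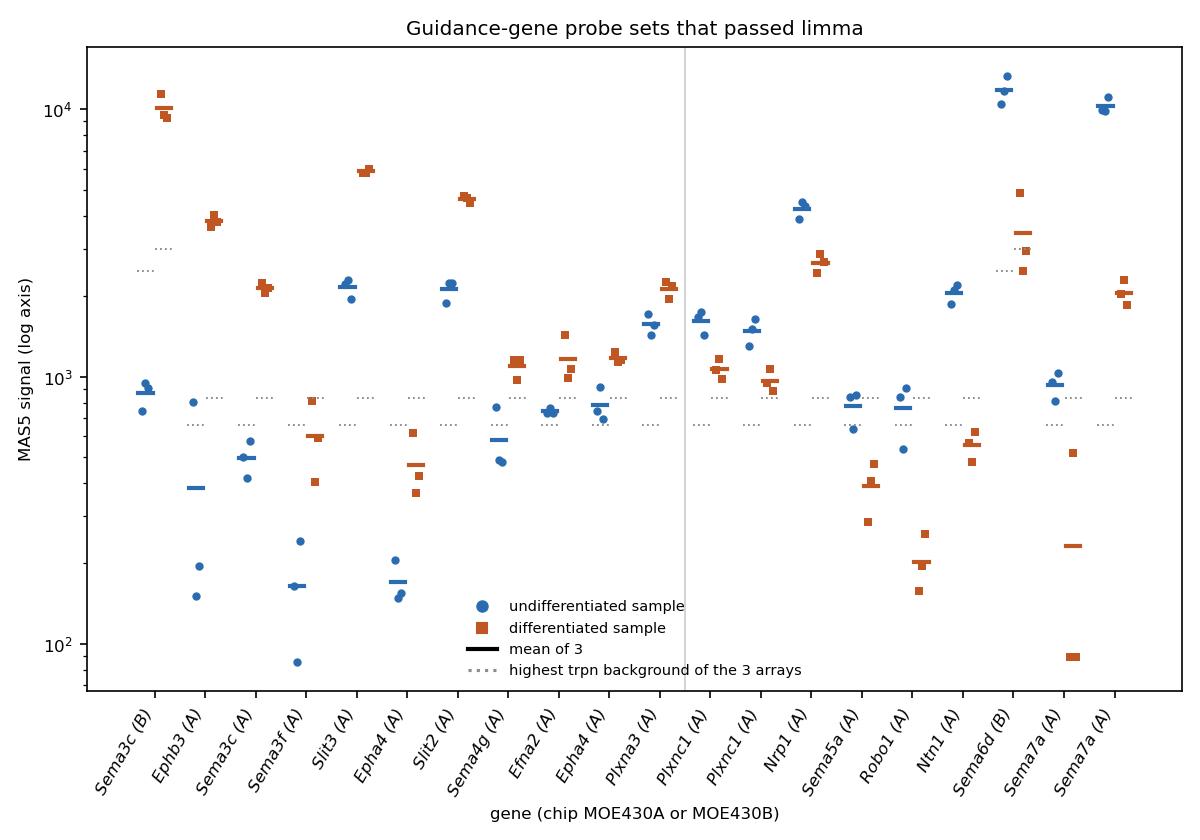
MAS5 signal (log axis) of the 20 guidance-gene probe sets that passed limma, 11 higher on the left and 9 lower on the right, in each undifferentiated sample (blue circles) and each differentiated sample (orange squares), with bars at the mean of 3 and dotted lines at the highest trpn background of the 3 arrays of that state. No probe set shows overlap between the states. All values of the Sema3f probe set and of the Epha4 probe set 1421929_at lie below the background of their own arrays. On the scale of the hybridisation controls 1 probe set each of Slit2, Sema4g, Efna2, Epha4 and Plxna3 would turn downward.

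The start regions of the genes with the largest changes on MOE430A are shown, among the passed genes with a window in the RefSeq table, so that the letters upstream of 2 genes that rose and 2 that fell can be compared. Each line gives the 250 bases before the RefSeq start (GRCm38.p6, all on the plus strand, 5′ to 3′, not transcribed from that start), Ephb3 at chr16:21204545-21204794, Sema3c at chr5:17574566-17574815, Sema7a at chr9:57939862-57940111 and Robo1 at chr16:72662899-72663148. Capitals mark the GC box GGGCGG, the core bound by SP and KLF factors, on either strand.
Ephb3: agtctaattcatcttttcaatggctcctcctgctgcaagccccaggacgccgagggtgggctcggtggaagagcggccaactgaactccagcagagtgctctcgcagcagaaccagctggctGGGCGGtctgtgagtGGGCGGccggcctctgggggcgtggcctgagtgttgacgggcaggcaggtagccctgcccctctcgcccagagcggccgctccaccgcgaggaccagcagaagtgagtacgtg
Sema3c: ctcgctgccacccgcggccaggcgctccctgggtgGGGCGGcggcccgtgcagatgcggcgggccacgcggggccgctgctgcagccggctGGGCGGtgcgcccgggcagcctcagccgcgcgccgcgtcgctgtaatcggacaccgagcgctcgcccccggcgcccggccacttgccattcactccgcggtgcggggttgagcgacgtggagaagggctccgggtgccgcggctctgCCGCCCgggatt
Sema7a: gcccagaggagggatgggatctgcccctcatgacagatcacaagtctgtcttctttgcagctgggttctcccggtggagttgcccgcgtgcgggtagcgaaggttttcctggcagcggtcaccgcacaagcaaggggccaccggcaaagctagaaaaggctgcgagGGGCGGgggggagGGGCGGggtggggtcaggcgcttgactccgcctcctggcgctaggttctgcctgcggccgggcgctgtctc
Robo1: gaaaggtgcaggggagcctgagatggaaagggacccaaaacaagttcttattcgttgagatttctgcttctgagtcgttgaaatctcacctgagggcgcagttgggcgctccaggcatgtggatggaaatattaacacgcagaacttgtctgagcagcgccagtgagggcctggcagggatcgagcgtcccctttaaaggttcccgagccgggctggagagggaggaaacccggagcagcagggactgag
Ephb3 held 2 GC boxes, Sema3c 3, Sema7a 2 and Robo1 none, so the motif stood upstream of both genes that rose and of 1 of the 2 that fell. Of the 14 genes that passed, 13 had a window in the table (all but Ntn1), and 12 of those 13 held a GC box, as did 77.4% of the 53 guidance genes with a window, 62.6% of the 7649 genes tested on MOE430A with one and 35.4% of all 27025 genes. The median window held 15 CpG both for the guidance genes and for the genes tested on MOE430A. Searched the same way on both strands, TATAAA occurred in 1 of the 13 and TGANTCA (AP-1), GGAATG (TEAD) and CACGTG (E-box) in 0, beside 9.06%, 6.12%, 13.2% and 9.81% of the genes tested on MOE430A.

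Of the secreted class 3 semaphorins, Sema3c rose on both chips. Sema3c, which acts through neuropilins with plexin D1 and class A plexins, was measured by a probe set on each chip, with values given throughout in the order of samples 1, 2 and 4. On MOE430A (1420696_at) it read 499.6, 416 and 575 in the undifferentiated samples and 2239.6, 2061 and 2142 in the differentiated samples. Of the undifferentiated values 2 lay below background and all differentiated values lay above it, with a rise from 497 ± 79.1 to 2148 ± 89.4 (SD, n = 3), a log2 fold change of 1.97 ± 0.14 (SE) and an adjusted p of 0.000153 by limma. On MOE430B (1429348_at) it read 746, 948 and 904 in the undifferentiated samples and 11403, 9509.9 and 9310.3 in the differentiated samples. All undifferentiated values there lay below background, so the rise is a bound, at least 4.78-fold, with an adjusted p of 0.00291. Both Sema3c calls held when any 1 sample was left out.

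Sema3f, a class 3 semaphorin that prefers the neuropilin Nrp2, had 3 tested probe sets that all pointed up. The probe set that passed (1420508_at) read 165, 85.5 and 243 in the undifferentiated samples and 812, 403 and 592 in the differentiated samples, with a log2 fold change of 1.51 ± 0.31 and an adjusted p of 0.0124 (limma). All 6 values lay below background, and there, as for every probe set described below as lying under background throughout, the log2 fold change is the fit's estimate and not a measured fold. The other MOE430A probe set, with values of 533, 132 and 545 in the undifferentiated samples and 918, 754 and 1284 in the differentiated samples, did not overlap and missed the threshold (log2 fold change 1.28 ± 0.44, adjusted p 0.0667). On MOE430B the third gave 0.56 with an adjusted p of 0.458 and overlapping values.

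The remaining class 3 genes did not pass. Sema3a, the classical repellent of growth cones, read 707, 711 and 508 in the undifferentiated samples and 1109, 853 and 636 in the differentiated samples, and the states overlapped (log2 fold change 0.37 ± 0.22, adjusted p 0.241). Sema3d had 2 probe sets on MOE430B, both with all differentiated values above the undifferentiated ones and all 6 values below background. They gave log2 fold changes of 2.09 and 1.12 with adjusted p-values of 0.0929 and 0.179. Sema3e, which binds plexin D1 without a neuropilin, and Sema3g lay below background in all samples on every probe set, with changes of -0.82 and -1.05 on MOE430B (adjusted p 0.495 and 0.283). Sema3b had 3 probe sets, none bright enough to be tested. Of the class 3 genes, Sema3a, Sema3c, Sema3d and Sema3e all lie on mouse chromosome 5.

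Of the membrane-bound semaphorins, Sema7a fell furthest. It is held in the membrane by a lipid anchor and binds plexin C1 and integrins. The probe set 1459903_at read 9966, 9882 and 11087 in the undifferentiated samples and 2031, 2297 and 1852 in the differentiated samples. Every sample lay above background and the states were far apart, with a fall from 10312 ± 672 to 2059.7 ± 224 (SD, n = 3), a log2 fold change of -2.29 ± 0.13 and an adjusted p of 6.89e-05 (limma). The second probe set (1422040_at) read 956, 813 and 1028 in the undifferentiated samples and 89.2, 519.8 and 89.7 in the differentiated samples, with a log2 fold change of -1.99 ± 0.48 and an adjusted p of 0.0224. All its differentiated values lay below background, making the fall at least 1.28-fold, and its call was lost when any 1 sample except differentiated sample 2 was left out (adjusted p 0.0574 to 0.0753).

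Sema6d, a transmembrane semaphorin that acts through plexin A1, fell on 1 of its 3 tested MOE430B probe sets and had another on MOE430A. The one that passed (1453055_at) read 10462, 11733 and 13281 in the undifferentiated samples and 4877, 2476 and 2949 in the differentiated samples, with a log2 fold change of -1.81 ± 0.32 and an adjusted p of 0.0462 (limma). The MOE430A probe set pointed the same way without overlap (-0.69, adjusted p 0.163), and the other 2 on MOE430B overlapped, at -0.34 and 0.03 (adjusted p 0.799 and 0.972). The call was lost when any 1 sample except differentiated sample 1 was left out, with adjusted p-values of 0.105 to 0.172.

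Sema5a, a transmembrane semaphorin with thrombospondin repeats, gave 1 probe set that fell and 3 that did not pass. The first (1434776_at) read 838, 637 and 852 in the undifferentiated samples and 286, 408 and 471 in the differentiated samples, with a log2 fold change of -0.89 ± 0.20 and an adjusted p of 0.016 (limma). With all differentiated values below background it fell at least 1.06-fold, and it no longer passed without undifferentiated sample 1 or 4 (adjusted p 0.056 and 0.062). The other probe sets overlapped between the states, at 0.26 on MOE430A and -0.06 and 0.12 on MOE430B (adjusted p 0.319, 0.95 and 0.919).

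Sema4g, a class 4 transmembrane semaphorin, was the membrane-bound semaphorin that rose. It read 771, 488 and 481 in the undifferentiated samples and 1155, 969.5 and 1157 in the differentiated samples, with a log2 fold change of 0.86 ± 0.19 and an adjusted p of 0.0175 (limma), and 2 of the undifferentiated values lay below background. The call was lost without undifferentiated sample 2 or 4 (adjusted p 0.0632 and 0.0655). Sema4c, a class 4 semaphorin that binds plexin B2, read 9362, 8065 and 8903 in the undifferentiated samples and 3213, 4861 and 5198 in the differentiated samples on MOE430B, all above background and with no overlap, and missed the threshold at -1.00 ± 0.27 (adjusted p 0.162). Sema6a, which binds plexins A2 and A4, also did not overlap on MOE430B (-1.26, adjusted p 0.211), with all differentiated values below background. Sema6c gave 0.41 and 0.71 on its 2 tested probe sets (adjusted p 0.136 and 0.0686), and Sema4b, Sema4d and Sema5b ranged from -0.44 to 0.63 without passing. Over all semaphorins on MOE430A, 2 of 11 tested genes rose, 2 fell and 7 did not pass, beside 14.2% of all genes upward and 13.9% downward. The median log2 fold change of the 11 was 0.37.

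Of the plexins, the receptors of the semaphorins, 7 genes were tested on MOE430A. Of these 1 rose, 1 fell and 5 did not pass, beside 14.2% of all genes upward and 13.9% downward. Plxnc1, the receptor of Sema7a, passed on 2 of its 4 MOE430A probe sets. The first (1450905_at) read 1666, 1741 and 1427 in the undifferentiated samples and 1063, 1164 and 979.8 in the differentiated samples, with a log2 fold change of -0.56 ± 0.14 and an adjusted p of 0.0223 (limma). The second (1423213_at) read 1297, 1505 and 1638 in the undifferentiated samples and 944, 1072 and 880.4 in the differentiated samples (-0.58 ± 0.14, adjusted p 0.0235). Both had all values above background and no overlap, and each lost its call without undifferentiated sample 2 or differentiated sample 4, the first also without undifferentiated sample 1 and the second without undifferentiated sample 4 or differentiated sample 1 (adjusted p 0.0523 to 0.084). A further probe set on MOE430A gave -0.48, another 0.16 and one on MOE430B -0.49, and none of these 3 passed (adjusted p 0.251, 0.366 and 0.54). The ligand Sema7a and its receptor Plxnc1 therefore both read lower in the differentiated samples on the probe sets that passed.

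Plxna3, a class A plexin that pairs with neuropilins, rose on 1 of 2 probe sets. It read 1708, 1434 and 1561 in the undifferentiated samples and 2268, 1953 and 2182 in the differentiated samples, with a log2 fold change of 0.43 ± 0.13 and an adjusted p of 0.0465 (limma), and its call was lost in all 6 fits that left out 1 sample (adjusted p 0.0559 to 0.141). The other probe set did not overlap and gave 0.32 (adjusted p 0.116). Plxnb2, a class B plexin that binds class 4 semaphorins, read 3438, 3999 and 3395 in the undifferentiated samples and 4117, 4743 and 4601 in the differentiated samples, all above background and without overlap, at 0.31 ± 0.13 and an adjusted p of 0.119. Plxnd1, the receptor of Sema3e and a partner of Sema3c, read 1375, 1775 and 2472 in the undifferentiated samples and 1147, 1214 and 1210.5 in the differentiated samples, also without overlap, at -0.58 ± 0.21 and an adjusted p of 0.0759.

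For Plxna1 the chips disagreed in sign, at 0.95 on MOE430A with overlapping values and -0.46 on MOE430B without overlap (adjusted p 0.205 and 0.397). On MOE430B its 6 values were all above background, 17266, 19498 and 16913 undifferentiated and 14146, 11899.5 and 12856 differentiated. Plxna4 was measured on that chip alone and gave 0.68 and 0.55 on 2 probe sets (adjusted p 0.248 and 0.739), and the antisense transcript Plxna4os1 gave 0.63 below background (adjusted p 0.419). Plxnb1 gave -0.84 and 0.14, Plxna2 from -1.25 to 0.21 over 4 probe sets and Plxnb3 0.10 and 1.20, none of which passed.

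The neuropilins, co-receptors for class 3 semaphorins and for vascular endothelial growth factor, gave 1 passed probe set, downward. This was 1 of 4 tested on MOE430A and 0 of 4 on MOE430B, beside 14.4% and 1.12% of all probe sets passing downward. Nrp1 fell on 1448943_at, which read 3874, 4492 and 4337 in the undifferentiated samples and 2439, 2869 and 2677 in the differentiated samples, above background throughout. The change was from 4234 ± 322 to 2662 ± 215 (SD, n = 3), a log2 fold change of -0.66 ± 0.13 with an adjusted p of 0.0104 (limma). It held when any 1 sample was left out and was lost with poly-A scaling (adjusted p 0.118). The other Nrp1 probe sets, 2 on MOE430A and 1 on MOE430B, did not overlap between the states either and gave -0.27, -0.19 and -0.72 without passing (adjusted p 0.128, 0.346 and 0.339). Nrp2 did not pass on any of 4 probe sets. On MOE430A it read 1378, 1550.1 and 1353 in the undifferentiated samples and 1051, 1201 and 1431 in the differentiated samples, overlapping, at -0.21, and on MOE430B 2 probe sets without overlap gave -0.96 and -0.82 (adjusted p 0.263 and 0.225) and one below background 0.16. Set side by side on MOE430A, then, Sema3c was higher in the differentiated samples while its co-receptor Nrp1 was lower and Nrp2 and Plxnd1 did not pass.

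**Figure D2:**
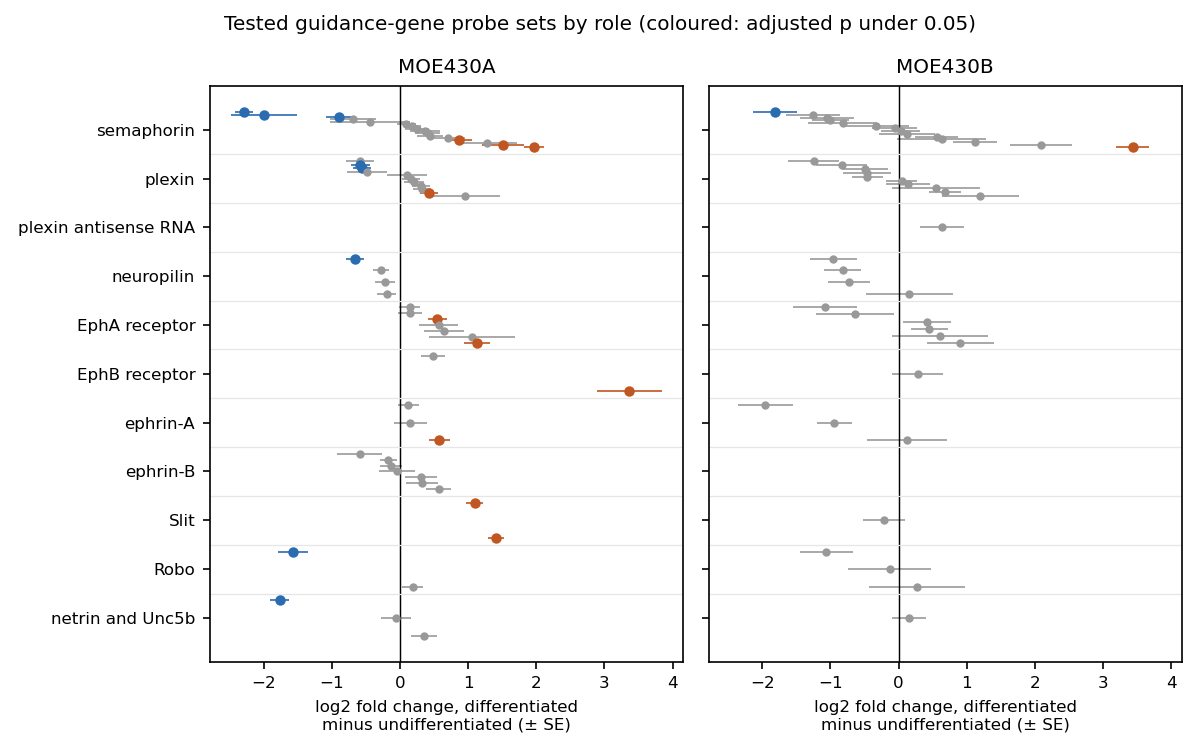
Log2 fold change, differentiated minus undifferentiated (± SE), of each tested guidance probe set, grouped by role, on MOE430A (57 probe sets, left) and MOE430B (44, right), with those that passed limma coloured orange (higher) or blue (lower) and the rest grey. Both Slit probe sets on MOE430A lie to the right of 0 and the 4 neuropilin probe sets to the left, while the semaphorins spread from -2.29 to 1.97; scaling on the hybridisation controls would turn 30 of the 37 MOE430A points above 0 negative, among them 5 that passed, the Slit2 point and 1 point each of Sema4g, Efna2, Epha4 and Plxna3.

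Among the Eph receptors, tyrosine kinases that sort cells at boundaries, Ephb3 changed most. Ephb3, a receptor of the transmembrane ephrin-Bs whose upstream letters stand above, was measured by 1 probe set (1451550_at), which read 803, 151 and 195 in the undifferentiated samples and 3630.2, 4026 and 3786 in the differentiated samples. Undifferentiated sample 1 read above background and the other 2 below it, so the undifferentiated spread is wide. The rise was from 383 ± 364 to 3814 ± 199 (SD, n = 3), a log2 fold change of 3.37 ± 0.48 with an adjusted p of 0.0028 (limma), and it ranged from 3.00 to 3.98 when 1 sample was left out, passing each time. Ephb4, a receptor of ephrin-B2, read 1341, 1087 and 1258 in the undifferentiated samples and 1851, 2072 and 1376 in the differentiated samples, all above background and without overlap, at 0.48 ± 0.18 and an adjusted p of 0.0836. Ephb1 was measured on MOE430B alone, where its values overlapped (0.28, adjusted p 0.774), and Ephb6 was too dim to be tested.

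Epha4, a receptor that binds ephrins of both classes, passed on both of its MOE430A probe sets. The first (1421928_at) read 743, 914 and 694 in the undifferentiated samples and 1240.2, 1134 and 1155 in the differentiated samples, above background throughout, with a log2 fold change of 0.55 ± 0.14 and an adjusted p of 0.0258 (limma). Its call was lost when any 1 sample except undifferentiated sample 2 was left out (adjusted p 0.0516 to 0.0902). The second (1421929_at) read 207, 148 and 155 in the undifferentiated samples and 615, 368 and 424 in the differentiated samples, all below background, at 1.13 ± 0.20 and an adjusted p of 0.00645, and it kept its call throughout. On MOE430B 2 probe sets pointed up with overlap, at 0.91 and 0.60. Of the other EphA receptors none passed. Epha3 gave 1.06 and 0.57 on MOE430A and 0.45 on MOE430B, Epha6 0.64, Epha7 -1.08 and Epha5 -0.64, with values of the states overlapping in each. Epha1 and Epha10 were below background in all samples, and Epha2 and Epha8 were too dim to be tested.

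The ephrin-A ligands gave 1 passed probe set of 3 tested on MOE430A and 0 of 3 on MOE430B, beside 28.5% and 1.83% of all probe sets. Efna2, a lipid-anchored ephrin-A, read 734, 765 and 729 in the undifferentiated samples and 1435, 986 and 1066 in the differentiated samples on MOE430A, with a log2 fold change of 0.58 ± 0.16 and an adjusted p of 0.0344 (limma). On MOE430B its other probe set went the opposite way, with 2652, 2790.4 and 2472 in the undifferentiated samples and 319, 684 and 1068 in the differentiated samples, at -1.95 ± 0.41 and an adjusted p of 0.0812. That probe set passed as lower with an offset of 20%, a filter of 50% and a trend and robust prior (adjusted p 0.0374, 0.0454 and 0.0171). It also passed on the scale of the hybridisation controls (0.00264), and not in the other alternatives that followed it. Both sets of values were without overlap, so the direction of Efna2 is uncertain, and the MOE430A call was also lost when any 1 sample except differentiated sample 2 was left out (adjusted p 0.054 to 0.101). Efna5 read 7626, 9571 and 6695 in the undifferentiated samples and 3519.9, 4512 and 4209 in the differentiated samples on MOE430B, all above background and without overlap, at -0.94 ± 0.26, and missed the threshold (adjusted p 0.161). Efna3 and Efna4 gave 0.15 and 0.13 on MOE430A, with overlap.

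No ephrin-B passed limma on any of 7 tested probe sets, beside 28.5% of all probe sets tested on MOE430A. Of the 7 that of Efnb3 alone had an unadjusted p under 0.05 (0.0182), beside 41.8% of all probe sets there. Efnb1 on 1418286_a_at read 3003, 2595 and 2672 in the undifferentiated samples and 2514, 2493 and 2314 in the differentiated samples, at -0.17 ± 0.12 with an adjusted p of 0.332. Its other probe sets gave 0.31 and -0.04 with overlap. Efnb2, the ligand of Ephb4, gave 0.32, -0.59 and -0.13, all with overlap. Efnb3 read 387, 462 and 412 in the undifferentiated samples and 822, 497 and 694 in the differentiated samples, without overlap, at 0.57 ± 0.19 and an adjusted p of 0.0588. The receptor Ephb3 thus rose in samples where the change of each tested ephrin-B probe set lay between -0.59 and 0.57 and did not pass.

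The Slits are large secreted repellents, and both Slit genes tested on MOE430A rose, beside 14.2% of all genes tested there. Slit3 (1452296_at) read 2228, 2289 and 1954 in the undifferentiated samples and 5798, 5794 and 5963 in the differentiated samples. The states were far apart relative to their spread, 2157 ± 178 against 5852 ± 96.4 (SD, n = 3), with a log2 fold change of 1.41 ± 0.12 and an adjusted p of 0.000306 (limma). Slit2 (1424659_at) read 1889.6, 2246 and 2247 in the undifferentiated samples and 4745, 4674 and 4444 in the differentiated samples, 2128 ± 206 against 4621 ± 157 (SD, n = 3), with a log2 fold change of 1.10 ± 0.13 and an adjusted p of 0.00114. Every value of these probe sets lay above background, and the calls held when any 1 sample was left out. On the scale of the hybridisation controls Slit2 turned to -0.0626, and Slit3 did not pass. A second Slit2 probe set on MOE430A was too dim to be tested, at 138, 46.7 and 148 undifferentiated and 445, 473 and 380.3 differentiated, and one on MOE430B overlapped (-0.22, adjusted p 0.789) below background. Slit1 was too dim to be tested on either chip.

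Robo1, the receptor of Slit2 and Slit3, moved the other way on MOE430A. It read 839.6, 537 and 904 in the undifferentiated samples and 158, 195 and 257 in the differentiated samples (1427231_at). The highest differentiated value lay below the lowest undifferentiated one, the log2 fold change was -1.57 ± 0.22 and the adjusted p 0.00283 (limma). Because all differentiated values and undifferentiated sample 2 were below background, the bound is at least 1.02-fold lower, close to no change, although the call held when any 1 sample was left out. On MOE430B both Robo1 probe sets lay below background, one without overlap at -1.06 and one with overlap at 0.27 (adjusted p 0.269 and 0.896). Robo4, the endothelial Robo, gave 0.19 with overlap (adjusted p 0.406), Robo2 -0.13 on MOE430B below background, and Robo3 was too dim to be tested.

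Netrin-1 fell on 1 of 2 probe sets, and there every undifferentiated value lay above background and every differentiated value below it. Ntn1 (1454974_at) read 1865, 2107 and 2193 in the undifferentiated samples and 564, 480.5 and 619.9 in the differentiated samples. The fall was from 2055 ± 170.3 to 555 ± 70.2 (SD, n = 3), a log2 fold change of -1.76 ± 0.14 with an adjusted p of 0.000225 (limma), at least 2.82-fold, and it held when any 1 sample was left out. A second Ntn1 probe set lay below background in all 6 samples and pointed up without passing, at 456, 266 and 428 in the undifferentiated samples and 464, 536 and 509 in the differentiated samples (0.36, adjusted p 0.198). Unc5b, a netrin receptor, read 4032, 2921 and 2449 in the undifferentiated samples and 2452, 3546 and 2972 in the differentiated samples on MOE430A, overlapping, at -0.05 ± 0.22 (adjusted p 0.879), and 0.15 on MOE430B (adjusted p 0.82).

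The other netrin receptors belong to the list of partner genes. Unc5a, a receptor for the repellent action of netrin-1, read 22632, 14216 and 18046 in the undifferentiated samples and 3957, 3331 and 3981 in the differentiated samples on MOE430B, and it fell from 18298 ± 4214 to 3756 ± 369 (SD, n = 3), a log2 fold change of -2.24 ± 0.27 with an adjusted p of 0.0169 (limma). Every Unc5a value lay above background, but the call was lost when any 1 sample except differentiated sample 1 was left out (adjusted p 0.0516 to 0.0836) and with poly-A scaling (0.0634). Dcc, the receptor for attraction, read 878, 879 and 602 in the undifferentiated samples and 938, 1024 and 979 in the differentiated samples, at 0.31 ± 0.17 and an adjusted p of 0.203. Neogenin (Neo1) read 1972, 2669 and 1189 in the undifferentiated samples and 2876, 3805 and 3730.1 in the differentiated samples, at 0.87 ± 0.28 and an adjusted p of 0.0583. Both had no overlap and did not pass, and Unc5c overlapped at 0.16.

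Read by detection, 24 of the 62 genes had a probe set above background in all 6 samples, 20 in none, and the remainder in some. Of 10 genes no probe set was bright enough to be tested (Efna1, Epha2, Epha8, Ephb6, Robo3, Sema3b, Sema4a, Sema4f, Sema6b and Slit1), and their 17 probe sets read between 13.2 and 917 units. Of the 52 genes tested, 14 were tested on MOE430B alone, where none passed by limma, beside 2.00% of all genes tested there (0.692% upward and 1.31% downward), and 6 of the 14 had an unadjusted p under 0.05 (Efna5, Plxna4, Sema3d, Sema3g, Sema4c and Sema6a), beside 15.9% of all genes tested there.

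Several genes were read more than once, which shows how far the probe sets of a gene go together. Of 18 genes tested on both chips, 14 had the same sign on both. Of the 8 of these that passed on MOE430A, 6 had the same sign on MOE430B, the exceptions being Efna2 and Slit2. Across the 18 genes the log2 fold changes of the chips had a Pearson's r of 0.60 and a Spearman rank correlation of 0.51, a description over genes that share the same RNA samples. Of 29 genes with several tested probe sets, 15 had all of them pointing one way, and so did 6 of the 13 among them that had a passed probe set. The genes with a passed probe set and another that pointed the other way were Efna2, Ntn1, Plxnc1, Robo1, Sema5a, Sema6d and Slit2, so their direction rests on the probe set that passed.

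**Figure D3:**
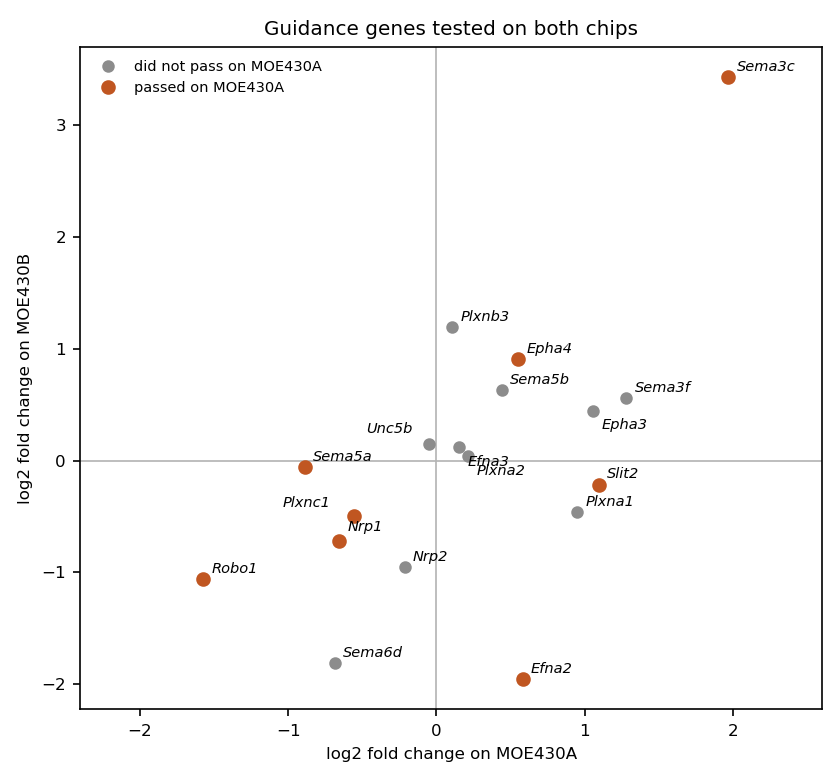
Log2 fold change (differentiated minus undifferentiated) of the 18 guidance genes tested on both chips, MOE430A on the horizontal and MOE430B on the vertical axis, each point a gene shown by its tested probe set of highest mean signal on that chip, orange where the gene passed limma on MOE430A. Sema3c lies at 1.97 and 3.43, the upper right, Efna2 at 0.58 and -1.95 is the passed gene whose chips differ most, and scaling on the hybridisation controls would turn 8 of the 11 genes above 0 on the horizontal axis negative there, 3 of them passed genes (Slit2, Efna2 and Epha4).

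To set the cues and receptors beside the machinery they use, 79 co-receptors, further cues and downstream genes were listed, of which 76 are on the chips and 75 were tested. On MOE430A 7 of 51 rose, 9 fell and 35 did not pass, beside 14.2% and 13.9% of all genes, and the median log2 fold change was -0.08. On MOE430B, of 24 tested there alone 0 rose by limma, Unc5a fell and 23 did not pass, beside 0.692% and 1.31% of all genes. At an unadjusted p under 0.05, 2 of the 24 pointed up and 5, Unc5a among them, pointed down, beside 7.28% and 8.57% of all genes. On the scale of the hybridisation controls 0 partner genes on MOE430A were higher and 37 lower, beside 233 and 10955 of all 16310 probe sets tested there. Rnd3, Rras, Tiam1 and Dpysl3 turned negative on that scale (-0.0345, -0.0697, -0.0029 and -0.45).

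With each partner gene taken by its tested probe set of highest mean, the largest fall on MOE430A was that of Rasa1, the Ras GTPase-activating protein that Eph receptors recruit, which read 15511, 15306 and 14994 in the undifferentiated samples and 2040.4, 2722 and 2605 in the differentiated samples. Its log2 fold change was -2.61 ± 0.14 with an adjusted p of 5.67e-05 (limma), and all 3 of its tested probe sets passed downward. Crmp1, a collapsin response mediator of class 3 semaphorin signalling, read 2209, 2854 and 2383 in the undifferentiated samples and 479, 572 and 588 in the differentiated samples, at -2.04 ± 0.15 and an adjusted p of 0.000156, at least 3.39-fold lower. Trio, a guanine exchange factor for small GTPases downstream of Dcc, fell at -1.22 ± 0.16 (adjusted p 0.00232), though 2 of its 5 tested probe sets pointed up. Fes, a kinase that acts below plexins, fell at -0.81 ± 0.17 (adjusted p 0.0131) on both of its probe sets, with an adjusted p of 0.0507 without undifferentiated sample 2. Nrcam, a cell adhesion partner of neuropilins, fell at -1.08 ± 0.33 (adjusted p 0.0483) with all values below background. Of its 4 probe sets 2 pointed up, and the call was lost when any 1 sample except differentiated sample 1 was left out (adjusted p 0.0979 to 0.138).

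Of the partner genes that rose, taken by the same probe sets, the 5 with the largest changes follow. Vegfa, a growth factor that also binds neuropilins, read 1158, 1013 and 1293 in the undifferentiated samples and 2744, 3244 and 2772 in the differentiated samples, at 1.29 ± 0.14 and an adjusted p of 0.000952 (limma), on both probe sets. Rnd3, an atypical small GTPase, rose at 1.13 ± 0.11 (adjusted p 0.000596), on both probe sets. Rras, the GTPase that plexins inactivate, rose at 1.10 ± 0.12 (adjusted p 0.000957). Tiam1, a Rac exchange factor that binds Eph receptors and ephrin-Bs, rose at 1.00 ± 0.19 (adjusted p 0.00892), with all undifferentiated values below background and a bound of at least 1.21-fold. Dpysl3, a collapsin response mediator like Crmp1, rose at 0.73 ± 0.14 (adjusted p 0.00854, and 0.0654 with poly-A scaling) on all 3 probe sets. Dpysl3 and Crmp1 thus moved in opposite directions in the reported fit. On the scale of the hybridisation controls Dpysl3 turned to -0.45, so that difference depends on the scale.

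**Figure D4:**
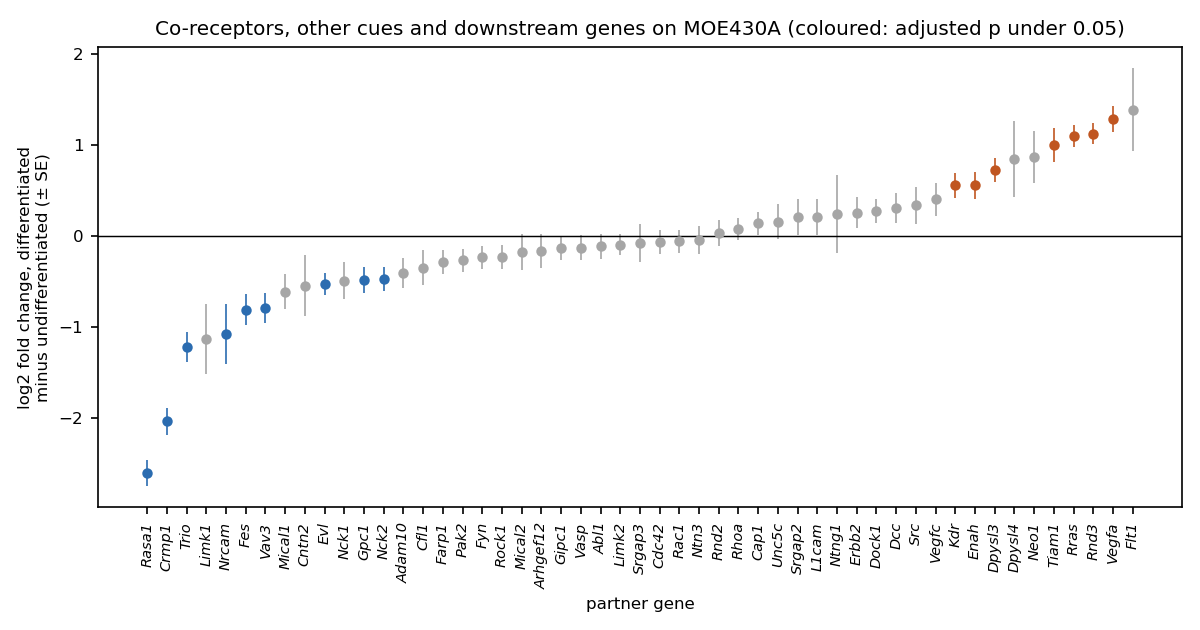
Log2 fold change, differentiated minus undifferentiated (± SE), of the 51 partner genes tested on MOE430A in order of their change, with the 7 that rose in orange, the 9 that fell in blue and the 35 that did not pass in grey. Rasa1 at -2.61 and Crmp1 at -2.04 lie lowest and Vegfa, at 1.29, is the highest that passed. Scaling on the hybridisation controls would leave 0 of these genes higher, beside 233 of all 16310 probe sets tested on that scale.

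Guidance genes are also expressed by fibroblasts, endothelium, neural cells and leukocytes, and lists of markers of these cells moved as follows on MOE430A. Of all genes tested on that chip 14.2% rose and 13.9% fell. Besides the fibroblast markers given above, 8 of 9 endothelial markers were tested, of which Kdr rose and Pecam1 and Tek fell. Their summed signal of 5539 to 6384 undifferentiated and 5175 to 6705 differentiated overlapped, and Tie1 was below background in all samples. Of the 7 neural and Schwann markers on the chip 3 rose (Ncam1, Sox10 and Tubb3) and 2 fell (Nefl and S100b), of which Tubb3 and S100b lay below background in all samples, and the sum went from 5041 to 7454 undifferentiated to 11938 to 13451 differentiated, with Ncam1 alone going from a mean of 65.0 to 7327. Of 7 macrophage and leukocyte markers 4 were tested and 2 rose (Lyz2 and Csf1r), the sum going from 4701 to 5817 undifferentiated to 6693 to 8502 differentiated, with C1qa, Itgam and Ptprc below background in all samples. The part of any of these cells in the changes of the guidance genes was not tested.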

How the data were processed

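Total RNA prepared with TRIzol was hybridised to both chips, per the labels. The authors deposited 1 linear intensity per probe set and array, the MAS5 signal (version not given in the sources used here). Instrument records gave the fluidics station (2 for undifferentiated, 1 for differentiated arrays) and the scan session (undifferentiated sample 1 alone in session 2).

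Arrays of a chip were rescaled to a common trimmed mean (2% off each end), 75 units (5%) were added and log2 taken, so low signals give understated fold changes. Probe sets with a mean of at least 300 units (20%) were kept for testing, 15939 of MOE430A and 17915 of MOE430B, and limma 3.58.1 (R 4.3.3; lmFit, eBayes) compared the states on each chip apart with no covariate, Benjamini-Hochberg adjusted over the chip, threshold 0.05, and every adjusted p in the text is limma's. The same steps were tested on simulated data with 200 changed probe sets per chip, where large changes were mostly recovered on MOE430A and none on MOE430B. In the data themselves 328 probe sets passed on MOE430B, so that outcome does not measure the recovery there. The median residual SD was 0.45 on MOE430B against 0.21 on MOE430A, so a missed call on MOE430B says little. Python 3.11.15, pandas 2.3.3 and matplotlib 3.10.9 made tables and figures. The 6 arrays per chip limit the precision.

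Gene names come from the platform tables, 20393 of 22690 probe sets on MOE430A and 14674 of 22575 on MOE430B being paired with 1 gene. Chromosomes and promoter windows are RefSeq's (GRCm38.p6). Where a state had all 3 values under the array's background, they were raised to it and the ratio of geometric means is given as "at least".

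Members, lists and tests were chosen with earlier results of these data known. Values per sample are given by rule for up to 12 higher and 12 lower passed probe sets without overlap, for genes whose probe sets disagree, and for 1 bright probe set of each role, and up to 5 partner genes each way. Further values (such as those of Sema3a, Sema3d, Sema4c, Ephb4, Efna5, Efnb3, Plxnd1, Dcc and Neo1) were added for their roles. Deviations from the state mean correlated at -0.02 to 0.05 between same-numbered samples. With 3 samples per state these values cannot show whether such samples share a source. The samples were treated as unpaired. Alternatives covered scaling, offset, filter, variance prior, blocks, mean of probe sets and left-out samples.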

Additional observations from a re-analysis of the deposited data

How the results depend on the processing

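The values as deposited, quantile normalization, an offset of 20%, a filter of 50% and the mean of a gene's probe sets left the counts of guidance and partner genes on MOE430A within 1.5 times, and so did poly-A scaling, an offset of 1%, no filter and a trend and robust prior. The mean of probe sets gives no count of probe sets. Scaling on the hybridisation controls gave 2 guidance genes higher and 22 lower, 33 probe sets passed on MOE430A and 13 on MOE430B, and 0 partner genes higher and 37 lower, with the median of all probe sets at -1.07 on MOE430A and -0.92 on MOE430B. Of all probe sets tested on that scale 11188 of 16310 passed on MOE430A and 1512 of 18197 on MOE430B. Higher calls were 2.08% of all calls on that scale on MOE430A, against 49.5% in the reported fit. Poly-A scaling put the MOE430B median at 0.17, against 0.04.

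The count of passed probe sets on MOE430B, 2 in the reported fit, was 1 with poly-A scaling, an offset of 1%, no filter or the scan session as a block, and 5 with a trend and robust prior. Over all probe sets of that chip 328 passed in the reported fit and 168, 244, 238, 58 and 838 in these alternatives. The scan session as a block, which amounts to leaving out undifferentiated sample 1, gave 5 guidance genes higher. No pairing of the samples is stated, and the sample number as a replicate block gave 0 probe sets passed on MOE430B (12 of 44 at an unadjusted p under 0.05) and 5 partner genes lower, with other counts within 1.5 times. None of all 17915 MOE430B probe sets passed with that block, and 2505 had an unadjusted p under 0.05. On MOE430A 1818 of all probe sets were lower with it, against 2298 in the reported fit. Without differentiated samples 1 and 4, those brightest on the hybridisation controls, 5 guidance genes were higher and 3 lower, 11 probe sets passed on MOE430A and 0 on MOE430B (9 at an unadjusted p under 0.05). That fit leaves 1 differentiated sample, assumed to vary like the others. Leaving out 1 sample in turn gave 4 to 7 guidance genes higher and 5 to 7 lower, 11 to 17 probe sets on MOE430A and 1 to 2 on MOE430B, and 5 to 7 partner genes higher and 4 to 9 lower. Undifferentiated sample 4 gave the lowest counts, 4 genes higher and 11 probe sets. Over all probe sets the fits without 1 sample passed 2760 to 3823 on MOE430A and 39 to 146 on MOE430B, against 4550 and 328 in the reported fit. The 6 genes with no call that survived every left-out sample were Efna2, Plxna3, Plxnc1, Sema4g, Sema5a and Sema6d. The cause of these changes was not tested, apart from the fewer samples that some alternatives use.

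On the scale of the hybridisation controls 30 of the 37 tested guidance probe sets above 0 on MOE430A and 18 of 22 on MOE430B turned below it, 5 of them passed ones. Of the probe sets followed through each alternative, on the scale of the hybridisation controls the log2 fold change became -0.55 for Epha4 (1421928_at), -0.0626 for Slit2, -0.52 for Efna2, -0.71 for Plxna3, -0.22 for Sema4g, -0.0345 for Rnd3, -0.0697 for Rras, -0.0029 for Tiam1 and -0.45 for Dpysl3. Of those followed that had not passed, some also turned there, to -0.64 for Ntn1, -0.86 for Plxnb2, -0.92 for Plxnc1 (1450906_at), -0.77 for Sema5a on MOE430A, -0.80 for Sema5a (1459109_at), -0.95 for Sema6d (1446536_at) and -0.60 for Robo1 (1457407_at), of which those of Plxnb2 and Plxnc1 passed as lower (adjusted p 0.0459 and 0.033). Quantile normalization put Sema6d (1446536_at) at -0.0138, poly-A scaling put Sema5a (1437422_at) at 0.0789, and the scan session block put it at 0.08 and Unc5b at 0.14. Unc5b reached 0.20 without differentiated samples 1 and 4. With 1 sample left out, changes crossed 0 for Robo1 (1457407_at, -0.28 to 0.93), Unc5b (-0.21 to 0.14), Sema5a (1437422_at, -0.37 to 0.11, and 1459109_at, -0.15 to 0.45) and Sema6d (1446536_at, -0.15 to 0.21, and 1459318_at, -0.64 to 0.23), none of which had passed. Signals near or below the trpn background limit what can be read: 44 of 91 guidance probe sets on MOE430A and 23 of 50 on MOE430B lay below it in all samples.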
